A study of Mus musculus with 18 samples.

Results

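Mitochondria of developing red cells build iron-sulfur clusters and make heme, and 8 genes of these 2 linked pathways were followed through erythroid differentiation: Nfs1, Iscu, Hscb, Isca1, Glrx5, Slc25a38, Tmem14c and Abcb10. They were taken by their mouse gene symbols, and each symbol matched 1 of the 54232 rows of a table of nascent RNA counts. The assay was 4sU-seq, in which cells build the uridine analogue 4-thiouridine (4sU) into the RNA they make during a short pulse, and the labelled RNA is then pulled out and sequenced. The cells came from fetal livers of C57BL/6 mouse embryos at e12.5-e13.5, were sorted by flow cytometry, rested for 6 h in culture and given 500 µM 4sU for 45 min.

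The 5 erythroid populations were separated by 2 surface proteins, Ter119, found on maturing red cells, and CD71, which takes up transferrin-bound iron, after cells with markers of other lineages (Lin) had been set apart. S0-Low cells were Lin-, CD71- and Ter119-, and S0-Medium cells were Lin-, CD71 medium and Ter119-. S1 cells were Lin-, CD71 high and Ter119-, S2 cells were CD71 high with medium Ter119, and S3 cells were high for both. Lin+ cells were the lineage-positive fraction. Each of the 6 groups had 3 replicates, all groups had the same 4sU treatment, and the labels give no other agent and no genetic change. The labels number the replicates without saying whether they were separate litters or sorts, so the p-values measure the spread between these libraries only.

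Iron-sulfur clusters are small cofactors of iron and sulfide that many enzymes of respiration, DNA repair and iron sensing need. In the mitochondrial matrix they are assembled on a scaffold protein, released by a chaperone pair and handed to the proteins that use them. Heme synthesis begins and ends in the same compartment, so its substrates, intermediates and iron have to cross the inner membrane, and the enzyme that inserts the iron itself carries an iron-sulfur cluster. Inherited defects of GLRX5, HSCB and SLC25A38 are known in people with sideroblastic anemia, in which iron accumulates in the mitochondria of erythroblasts.

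Libraries held between 9452476 and 40567976 counts in all, and S0-Low replicate 3 was the shallowest. The reads came through PCR with no molecular identifiers, so depth speaks to counting error alone. Levels are given as TMM-scaled CPM, the counts of a gene put on a common library size with edgeR's TMM factors. They are shares of the nascent RNA of a library, so fewer cells of a type and less RNA per cell cannot be told apart. The summed level of 6 erythroid markers ran from 492 to 1040 CPM in S0-Low, 936 to 1960 in S0-Medium, 2600 to 5430 in S1, 4930 to 11100 in S2 and 20100 to 34700 in S3. It was 268 to 350 CPM in Lin+. Within each of the 5 erythroid populations replicate 3 had the highest erythroid marker sum. Replicate 3 also held the highest value of 8 of the 8 genes in S0-Medium, of 7 in S1, of 6 in S2 and of 6 in S3, against 3 in S0-Low. The part that this ordering plays in the results was not tested, and the counts of the 8 genes called are given with and without replicate 3.

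Promoter sequence was at hand from RefSeq (GRCm38.p6) for 6 of the 8 genes, as the 250 bases before the start in that table, and Iscu and Hscb had no entry. That start lies within the gene span given here for Nfs1 and Slc25a38, whose windows, not printed, hold 16 and 5 bases of it. A few are shown because they are the promoters of the gene with the largest rise from S0-Low to S3 and of a pair of assembly genes that rose with it. Capitals mark every match, on either strand, to any of 6 motifs. GATA factors are known to bind AGATAA, and the related word TGATAA, and KLF factors to bind CCNCNCCC. The other three are GCNTGCGC for the factor NRF1, CCAAT for the factor NF-Y and CGGAAG for factors of the ETS family. Those 3 motifs were added after the windows had been read.

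Abcb10 (chr8:123983123-123983372, minus strand): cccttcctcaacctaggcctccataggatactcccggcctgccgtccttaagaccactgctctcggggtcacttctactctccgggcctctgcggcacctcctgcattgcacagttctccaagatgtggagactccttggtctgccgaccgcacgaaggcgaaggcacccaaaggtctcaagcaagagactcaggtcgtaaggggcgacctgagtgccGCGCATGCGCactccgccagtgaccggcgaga
Isca1 (chr13:59769790-59770039, minus strand): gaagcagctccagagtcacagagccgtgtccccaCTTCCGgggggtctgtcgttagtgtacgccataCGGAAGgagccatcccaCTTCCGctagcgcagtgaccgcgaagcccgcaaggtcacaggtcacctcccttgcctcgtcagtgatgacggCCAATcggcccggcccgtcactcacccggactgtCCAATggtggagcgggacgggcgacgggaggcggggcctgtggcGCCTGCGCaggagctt
Glrx5 (chr12:105032368-105032617, plus strand): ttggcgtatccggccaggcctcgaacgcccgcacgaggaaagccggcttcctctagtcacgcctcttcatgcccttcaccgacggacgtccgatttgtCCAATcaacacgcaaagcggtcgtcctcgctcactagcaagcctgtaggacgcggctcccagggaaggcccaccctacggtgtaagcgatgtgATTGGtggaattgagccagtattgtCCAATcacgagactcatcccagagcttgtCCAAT

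Neither AGATAA nor the related TGATAA was in any of the 6 windows, and at least 1 of the pair was in 17.0% of 27025 promoter windows of that length. GCNTGCGC was in 8.42% of all windows and in those of Abcb10 and Isca1. The Abcb10 matches, on opposite strands, overlap each other 30 and 32 bases before the start, and the Isca1 match lies 16 bases before it. CCAAT was in 34.5% of all windows, and Glrx5 held it 4 times, at 5, 34, 59 and 152 bases before the start. Isca1 held CCAAT at 60 and 94 bases and CGGAAG, found in 13.8% of all windows, at 166, 183 and 216 bases. Of the promoters not printed, Slc25a38 held CGGAAG at 45 bases and a pair of overlapping CCNCNCCC matches at 9 and 11 bases, and CCNCNCCC was in 45.6% of all windows. Tmem14c held CCNCNCCC at 66 bases and CCAAT at 25, and Nfs1 held CGGAAG at 15. These matches describe the letters in the windows and are not evidence of binding.

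From S0-Low to S3, nascent RNA rose for 7 of the 8 genes and did not pass the test for Nfs1. Over all 16555 genes tested, 13.4% were called higher and 22.4% lower in this comparison (edgeR quasi-likelihood test on the 15 erythroid libraries, two-sided, Benjamini-Hochberg adjusted p under 0.05). That split, 2220 genes higher and 3712 lower, became 1156 and 6228 when libraries were scaled by their totals alone. The rises spanned log2 fold changes from 2.07 for Tmem14c to 5.52 for Abcb10. The median of the 8 was 3.0, and the median of all genes tested was -0.54. The S3 range lay wholly above the S0-Low range for the same 7 genes, as it did for 16.6% of all genes, and wholly below it for Nfs1, as for 25.9%. Scaling by library totals moved the median of all genes to -1.36 and that of the 8 genes to 2.09, and the 7 calls stood. They also stood without replicate 3 in every population. Several marker lists of other cells moved over the same comparison. The 7 stem and progenitor markers were all called lower, and summed to 1020 to 1510 CPM in S0-Low and 1.61 to 10.8 in S3, with Hlf listed at 0 there. For 8 neutrophil and monocyte markers, of which 6 were tested and 4 called lower, the sums were 436 to 809 and 0.0575 to 5.41 CPM, and 5 of them, Elane, Itgam, Ly6g, Csf1r and Lyz2, are listed at 0 in S3, Itgam in S0-Low as well. For 6 hepatocyte and endothelium markers, of which 5 were tested and 4 called lower, they were 57.4 to 135 and 2.52 to 12.0 CPM, with Alb, Afp, Apoa1, Ttr and Cdh5 listed at 0 in S3 and Ttr in S0-Low as well. Of 6 lymphoid markers 2 were tested and 1 called lower, with sums of 11.3 to 24.3 and 0 to 1.17 CPM. The 5 megakaryocyte markers overlapped, with sums of 32.6 to 142 CPM in S0-Low and 18.3 to 86.6 in S3, and 0 of the 3 tested were called. Their part in the changes was not tested.

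**Figure D1:**
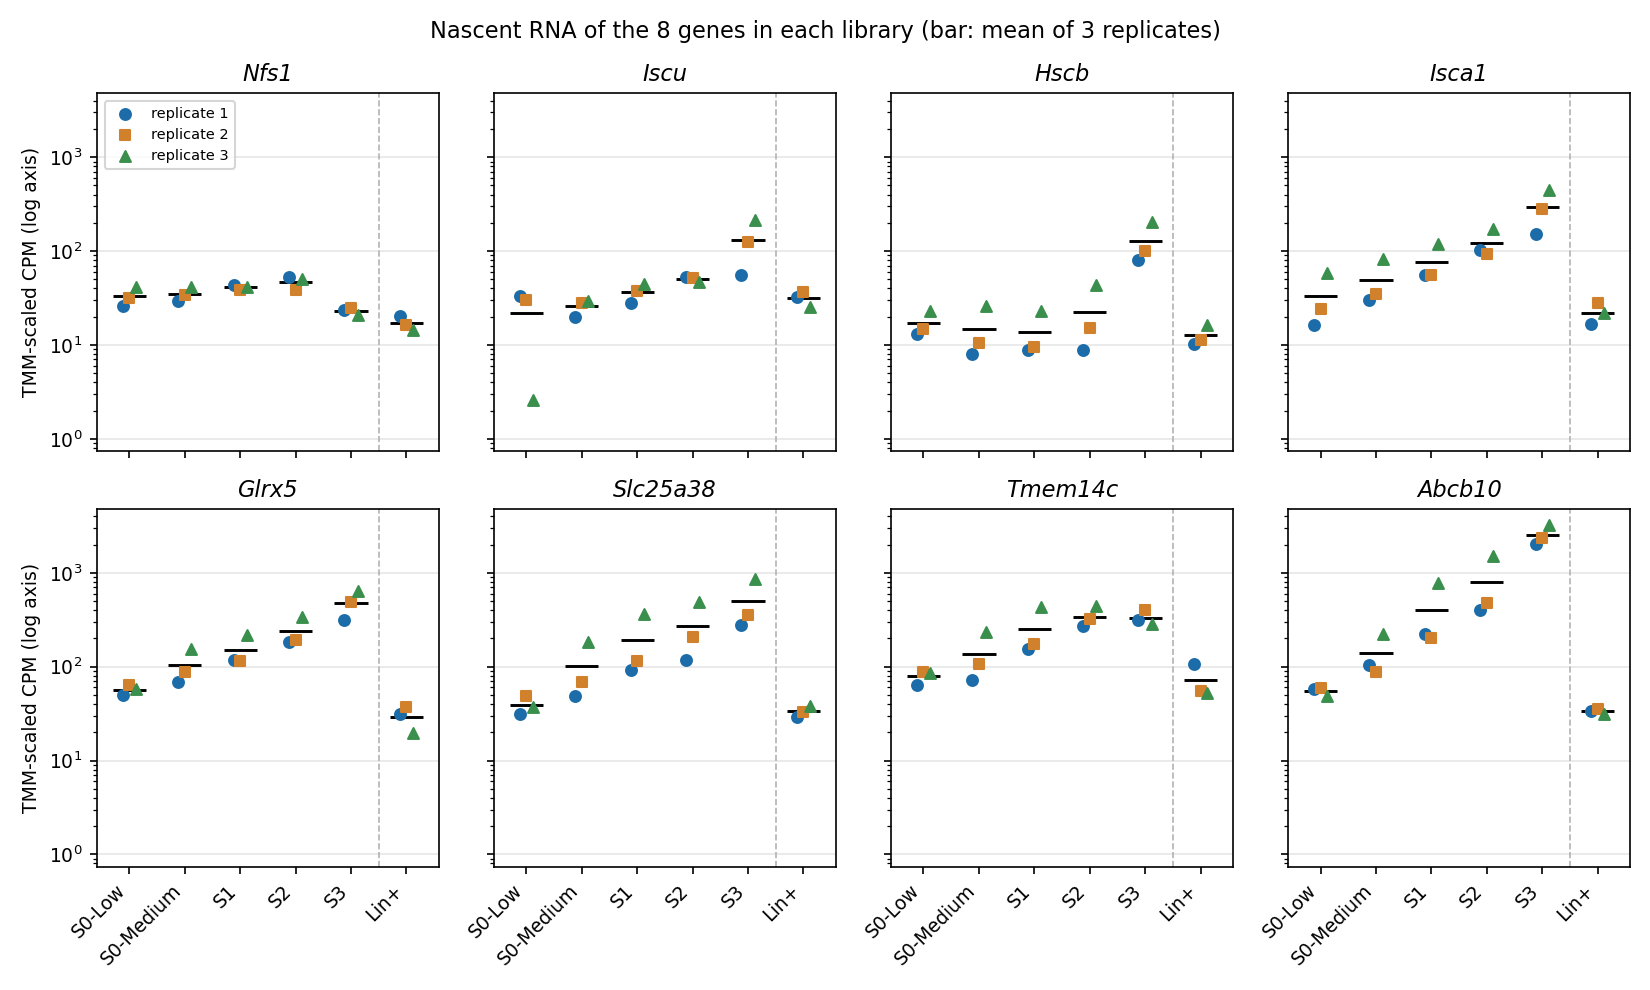
Nascent RNA of each gene in TMM-scaled CPM (vertical log axis) in the 3 replicates of S0-Low, S0-Medium, S1, S2, S3 and Lin+, with a bar at the mean. Abcb10 climbs from 48.5-59.2 CPM in S0-Low to 2049-3205 in S3, Hscb stays under 50 CPM through S2 and stands at 81.0 to 203 in S3, and Nfs1 stays between 20.7 and 53.4 in all 15 erythroid libraries.

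Nfs1, the cysteine desulfurase that supplies the sulfur of new clusters (ENSMUSG00000027618, chromosome 2, 156123637 to 156144202 in GRCm38), was the one gene of the 8 whose mean was lower in S3 than in S0-Low. Its level was 26.0, 31.5 and 41.9 CPM in S0-Low replicates 1, 2 and 3, and 29.6, 34.3 and 41.9 CPM in S0-Medium. It was 43.4, 38.9 and 41.6 CPM in S1 and 53.4, 38.8 and 50.0 CPM in S2. The 4 populations overlapped from each to the next. In S3 it stood at 23.3, 24.7 and 20.7 CPM, below every other erythroid library. The log2 fold change from S2 to S3 was -1.04 ± 0.34 (SE), with an adjusted p of 0.0688, and from S0-Low to S3 it was -0.54 ± 0.34 with an adjusted p of 0.229. The first difference was called with DESeq2 (-0.93, adjusted p = 0.00395), library totals (-1.53, adjusted p = 0.015), at least 10 counts in every compared library (-1.12, adjusted p = 0.0255) and all 18 libraries (-1.05, adjusted p = 0.0486). The second difference was called with DESeq2 (-0.68, adjusted p = 0.0241), with library totals (-1.38, adjusted p = 0.00895) and with the same minimum of 10 counts (-0.82, adjusted p = 0.0418). Nfs1 shares 13.0% of its 31-base stretches with Cpne1 and Rbm12, which overlap it on the same strand and are listed at 0 in all 18 libraries.

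Iscu, the scaffold on which clusters are put together (ENSMUSG00000025825, chromosome 5, 113772418 to 113778288), had a low level up to S1 and its highest in S3. It had 33.6, 30.2 and 2.57 CPM in the S0-Low replicates, the last of them from 31 counts, and 19.7, 28.0 and 29.4 CPM in S0-Medium. It had 28.2, 37.6 and 45.1 CPM in S1, then 53.4, 51.3 and 47.3 CPM in S2. S2 lay above S1 without overlap on the TMM scale, but the 2 overlapped when counts were divided by library totals. In S3 it reached 55.5, 124 and 216 CPM, the widest relative spread of Iscu among the erythroid populations other than S0-Low. The log2 fold change from S0-Low to S3 was 2.57 ± 0.68 (adjusted p = 0.00886). It was 2.01 without the low S0-Low library, still called, and it was not called when only the 6 compared libraries entered the fit (adjusted p = 0.0722). Of the 31-base stretches of Iscu, 17.9% also occur in other genes, among them Slc2a3, which had 342 to 6190 counts in a library against 31 to 3752 for Iscu.

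Hscb, the co-chaperone that helps release the cluster from the scaffold (ENSMUSG00000043510, chromosome 5, 110829070 to 110839793), had its largest difference between neighbouring populations at the last step. It had 13.2, 14.7 and 22.9 CPM in S0-Low, 7.99, 10.5 and 26.3 CPM in S0-Medium and 8.88, 9.42 and 22.9 CPM in S1. In S2 it had 8.93, 15.1 and 43.4 CPM. These 4 populations overlapped, and replicate 3 was the highest in each. In S3 it had 81.0, 101 and 203 CPM, so that the lowest S3 library was above the highest S2 library. It was the one gene of the 8 called between S2 and S3 (log2 fold change 2.52 ± 0.66, adjusted p = 0.026). That call was lost in 5 of the alternatives, given with this step further on, and without S2 replicate 3 the log2 fold change was 3.41 (adjusted p = 0.00593). From S0-Low to S3 the log2 fold change was 2.92 ± 0.67 (adjusted p = 0.0037).

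Isca1, which acts late in the mitochondrial pathway in building clusters of the 4-iron type (ENSMUSG00000044792, chromosome 13, 59755415 to 59769789), had a higher mean at each stage than at the one before. It had 16.5, 24.3 and 57.8 CPM in S0-Low, 30.2, 34.8 and 82.1 CPM in S0-Medium and 56.0, 55.9 and 120 CPM in S1. In S2 it had 102, 92.0 and 170 CPM and in S3 154, 279 and 445 CPM. Each population overlapped the next, while S3 lay above S0-Low in every library (log2 fold change 3.16 ± 0.58, adjusted p = 0.000788). Isca1 shares 35.7% of its 31-base stretches with other genes, chiefly copies named AK157302. The copy with counts had 2 to 247 in a library and Crot, another of these genes, had 60 to 3349, against 492 to 7735 for Isca1.

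Glrx5, the glutaredoxin that passes clusters from the scaffold to their receivers (ENSMUSG00000021102, chromosome 12, 105032618 to 105040911), had the smallest SE among the 7 genes that rose. It had 50.1, 63.2 and 57.6 CPM in S0-Low, 68.2, 88.2 and 153 CPM in S0-Medium and 117, 116 and 218 CPM in S1. In S2 it had 184, 195 and 335 CPM and in S3 315, 483 and 645 CPM. S0-Medium already lay above S0-Low without overlap on the TMM scale, but overlapped it when counts were divided by library totals. The log2 fold change from S0-Low to S3 was 3.08 ± 0.41 (adjusted p = 6.96e-05).

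Slc25a38, the inner membrane carrier that brings in glycine for the first step of heme synthesis (ENSMUSG00000032519, chromosome 9, 120110377 to 120126093), likewise lay above its S0-Low range in all S0-Medium libraries. It had 31.2, 48.5 and 36.8 CPM in S0-Low, 49.2, 68.8 and 184 CPM in S0-Medium and 91.2, 114 and 368 CPM in S1. In S2 it had 117, 205 and 485 CPM and in S3 281, 356 and 860 CPM. Replicate 3 was over 1.5 times either other replicate in S0-Medium, S1, S2 and S3. When counts were divided by library totals, the S0-Medium and S0-Low ranges of Slc25a38 overlapped. The log2 fold change from S0-Low to S3 was 3.68 ± 0.71 (adjusted p = 0.00109), and it was 3.0 without replicate 3 in every population (adjusted p = 0.000212).

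Tmem14c, an inner membrane protein needed for the import of a heme precursor into the matrix (ENSMUSG00000021361, chromosome 13, 41016250 to 41022582), had a higher mean at each stage up to S2 and nearly the same mean in S3. It had 63.3, 87.2 and 86.4 CPM in S0-Low, 72.1, 108 and 233 CPM in S0-Medium and 154, 173 and 431 CPM in S1. In S2 it had 268, 319 and 440 CPM and in S3 311, 402 and 285 CPM. The S2 and S3 means were 342 ± 88.3 and 333 ± 61.7 CPM (SD, n = 3), with a log2 fold change of -0.04 ± 0.44 (adjusted p = 0.996) whose sign turned to 0.08 with DESeq2 or RLE factors. When counts were divided by library totals, the S3 mean was below the S2 mean. From S0-Low to S3 the log2 fold change was 2.07 ± 0.46 (adjusted p = 0.00288), the smallest of the 7 rises.

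Abcb10, an inner membrane transporter of the ABC family needed for heme synthesis in erythroid cells (ENSMUSG00000031974, chromosome 8, 123952459 to 123983122), had the largest rise. It had 58.1, 59.2 and 48.5 CPM in S0-Low, 105, 88.0 and 222 CPM in S0-Medium and 225, 202 and 773 CPM in S1. In S2 it had 405, 478 and 1502 CPM and in S3 2049, 2352 and 3205 CPM. Both S0-Medium against S0-Low and S3 against S2 were free of overlap. The mean went from 55.3 ± 5.9 to 2540 ± 600 CPM (SD, n = 3), a log2 fold change of 5.52 ± 0.67 (adjusted p = 3.34e-05). The gene Gm20388 covers the whole of Abcb10 on the opposite strand, and the strand setting of the counting is not given in the sources used here.

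Single steps between neighbouring populations mostly overlapped between unpaired replicates and missed the adjusted threshold. For S0-Medium against S0-Low, S1 against S0-Medium and S2 against S1, 0% of the 16555 genes and 0 of the 8 were called by edgeR. At an unadjusted p under 0.05 these steps held 539, 1135 and 667 genes, and 2, 1 and 0 of the 8. DESeq2 called 55, 410 and 159 genes, and 0 of the 8 at each step. The 2 genes under that p at the first step were Abcb10 (log2 fold change 1.32 ± 0.56) and Glrx5 (0.85 ± 0.39), and the 1 at the second was Abcb10 again (1.53 ± 0.57). Each rested in part on 1 library. Without S0-Medium replicate 3 the first-step values were 0.78 ± 0.58 for Abcb10 and 0.43 ± 0.40 for Glrx5, and without S1 replicate 3 the second-step value of Abcb10 was 0.62 ± 0.51. With no filter on low counts Abcb10 was called at the second step (1.5 ± 0.37, adjusted p = 0.0128). With the replicate number as a block, 23, 57 and 0 genes were called, and still 0 of the 8. Without replicate 3 in every population, 0 genes and 0 of the 8 were called at each of these steps. On the TMM scale and without overlap, Glrx5, Slc25a38 and Abcb10 stood above S0-Low in S0-Medium, as did 5.2% of all genes, and Iscu stood above S1 in S2, as did 3.61%. When counts were divided by library totals, Abcb10 stayed apart, while Glrx5, Slc25a38 and Iscu overlapped. The shares of all genes on that scale were not computed. Within same-numbered pairs, Glrx5, Abcb10, Isca1, Slc25a38 and Tmem14c were higher in all 3 pairs at each of the first 3 steps, without a test. At the first step they were 5 of the 8, beside 18.6% of all genes. At the second, Iscu made 6, beside 23.6%, and at the third Iscu and Hscb made 7, beside 16.5%. With library totals the counts were 5, 6 and 4, beside 16.4%, 14.9% and 11.2% of all genes, since Iscu, Hscb and Tmem14c dropped out at the third.

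Between S2 and S3, 1 of the 8 was called higher (Hscb) and 0 lower, where 3.26% of all genes were higher and 6.09% lower (540 and 1008 genes, or 288 and 2264 with library totals). On the TMM scale Iscu, Hscb and Abcb10 lay above their S2 range in every S3 library, as did 8.99% of all genes, and Nfs1 lay below it, as did 14.2%. When counts were divided by library totals, Iscu overlapped its S2 range, while Hscb, Abcb10 and Nfs1 stayed apart. The shares of all genes on that scale were not computed. The other log2 fold changes that missed the threshold were 1.68 ± 0.57 for Abcb10 (adjusted p = 0.0761), 1.39 ± 0.65 for Iscu (0.187), 1.27 ± 0.54 for Isca1 (0.147), 1.02 ± 0.39 for Glrx5 (0.106) and 0.90 ± 0.64 for Slc25a38 (0.388). The value of Slc25a38 was 0.23 without S3 replicate 3, 0.52 without S2 replicate 1, 1.62 without S2 replicate 3 and 0.36 with library totals. Without S3 replicate 3 the values of Iscu and Isca1 were both 0.82, and without S2 replicate 3 Abcb10 (2.51, adjusted p = 0.0102) and Glrx5 (1.34, adjusted p = 0.0472) were called too. The call of Hscb was lost without S2 replicate 1 (adjusted p = 0.111), without S2 replicate 2 (0.116), without S3 replicate 3 (0.108), with the 6 compared libraries alone (0.112) and with library totals (0.051). With library totals the count of the 8 was thus 0 higher and 1 lower, Nfs1. DESeq2 called 3 higher and 1 lower, where it called 1329 genes higher and 2081 lower of 15702 tested. Without replicate 3 in every population, 4 of the 8 were called higher between S2 and S3. They were Abcb10 (2.32 ± 0.21, adjusted p = 0.000275), Hscb (2.92 ± 0.42, adjusted p = 0.00147), Glrx5 (1.08 ± 0.26, adjusted p = 0.0182) and Isca1 (1.16 ± 0.32, adjusted p = 0.0319), and the genes called over the whole table then rose from 1548 to 3259. Markers of other cells moved at this step too. Stem and progenitor markers summed to 18.5 to 129 CPM in S2 and 1.61 to 10.8 in S3, and 1 of the 7, Kit, was called lower (-6.30 ± 1.14, adjusted p = 0.00369). Megakaryocyte markers summed to 13.6 to 22.9 and 18.3 to 86.6 CPM, and 1 of the 3 tested, Itga2b, was called higher (2.21 ± 0.63, adjusted p = 0.039). Of the neutrophil and monocyte, lymphoid, and hepatocyte and endothelium markers, edgeR called 0 of 6, 0 of 2 and 0 of 5 tested, and 0, 1 and 1 had an unadjusted p under 0.05. The part of these cells in the result was not tested.

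**Figure D2:**
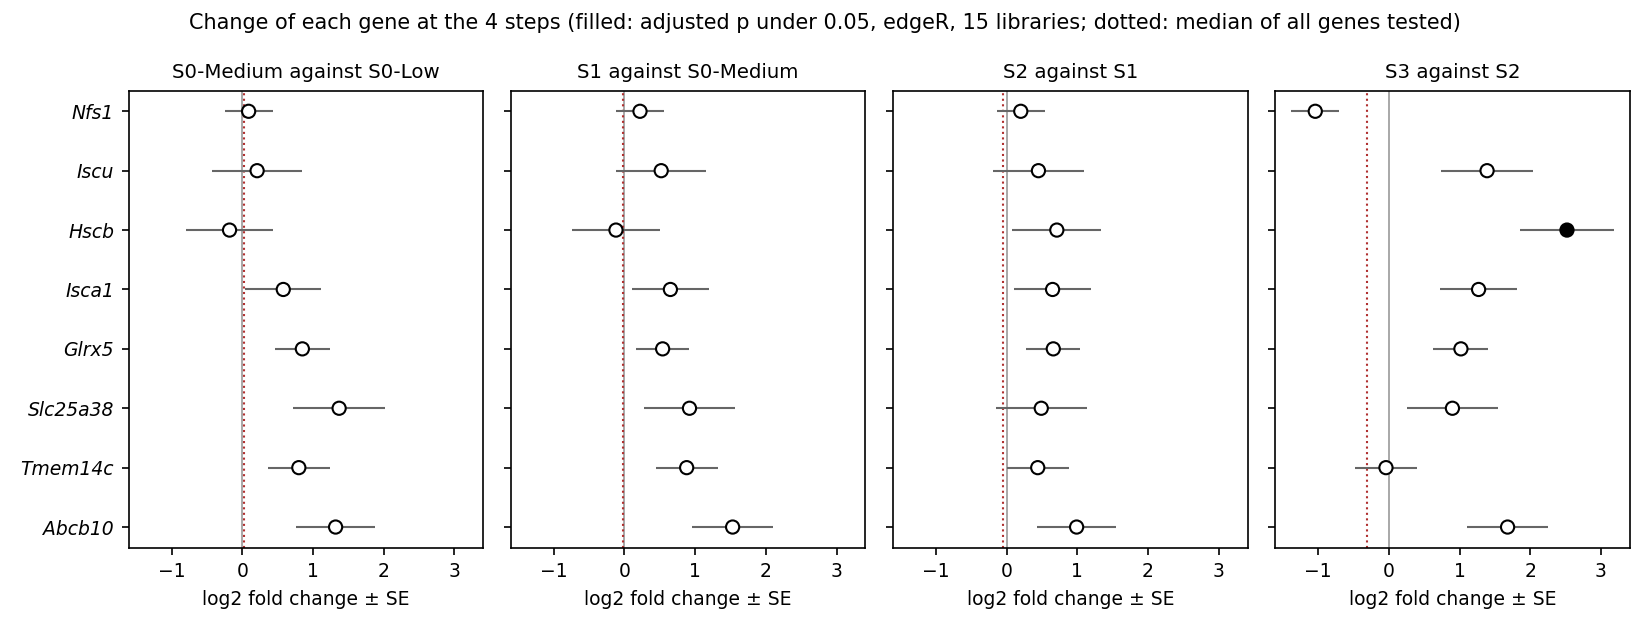
Log2 fold change with its SE for each gene at the 4 steps between neighbouring populations (horizontal axis), filled where the edgeR adjusted p is under 0.05, with a dotted line at the median of all genes tested. Only Hscb from S2 to S3 is filled, at 2.52, while Nfs1 lies at -1.04 and Tmem14c at -0.04 at that step.

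Compared per kilobase of the longest coding transcript, the order of the 8 genes turned over. Abcb10 had the lowest mean in S0-Low (12.8 CPM per kb) and the highest in S3 (589). Tmem14c had the highest in S0-Low (83.6), S0-Medium (146), S1 (267) and S2 (362). Nfs1 was the lowest in S3 (11.2 CPM per kb). These placements also held with the median transcript length, by which Nfs1 had 32.3 CPM per kb in S3, but the order of the genes between them depended on the length used, so it is not given.

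The balance between genes was taken within each library as a log2 ratio of CPM + 0.5, in which the library scaling cancels apart from the pseudocount. Pairs of related genes were compared between S3 and S0-Low by two-sided exact permutation tests, where p = 0.1 is the least that 3 against 3 can give.

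Glrx5 over Glrx3, a cytosolic glutaredoxin, had a log2 ratio of -1.34, -0.44 and 0.86 in S0-Low and 2.60, 3.32 and 4.48 in S3 (difference 3.77, exact permutation p = 0.1). Glrx3 averaged 81.5 ± 48.0 CPM in S0-Low and 42.6 ± 12.4 in S3. Isca1 over Isca2, its partner in the same step, was 0.05, 0.62 and 3.43 in S0-Low replicates 1, 2 and 3 and 3.45, 2.15 and 4.31 in S3, which overlap (difference 1.93, exact permutation p = 0.2). The overlap came from S0-Low replicate 3, the shallowest library of that population, and the difference was 2.96 without it and 1.27 without S0-Low replicate 1. Slc25a37 over Slc25a28, the 2 mitoferrins that import iron, ran from -0.66 to 1.30 in S0-Low and from 6.40 to 7.14 in S3 (difference 6.51, exact permutation p = 0.1). Tmem14a, a relative of Tmem14c, had at least 119 counts in each S0-Low library and at most 2 in each S3 library. The log2 ratio of Tmem14c to it was 3.00 to 4.16 in S0-Low and 9.16 to 9.41 in S3, and its difference of 5.62 became 7.61 with a pseudocount of 0.1 and 3.99 with 2 (exact permutation p = 0.1).

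A pair of further ratios was chosen after the values had been seen, so their differences are a description without a test. Iscu over Nfs1, scaffold over sulfur donor, was 0.00, 0.40 and -0.08 in S2 and 1.23, 2.31 and 3.35 in S3, a difference of 2.19 in the means. Hscb over Tmem14c was -4.83, -4.36 and -3.33 in S2 and -1.93, -1.98 and -0.49 in S3, a difference of 2.70 in the means. In S0-Low the second ratio was -2.22, -2.53 and -1.89, which overlaps S3.

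**Figure D3:**
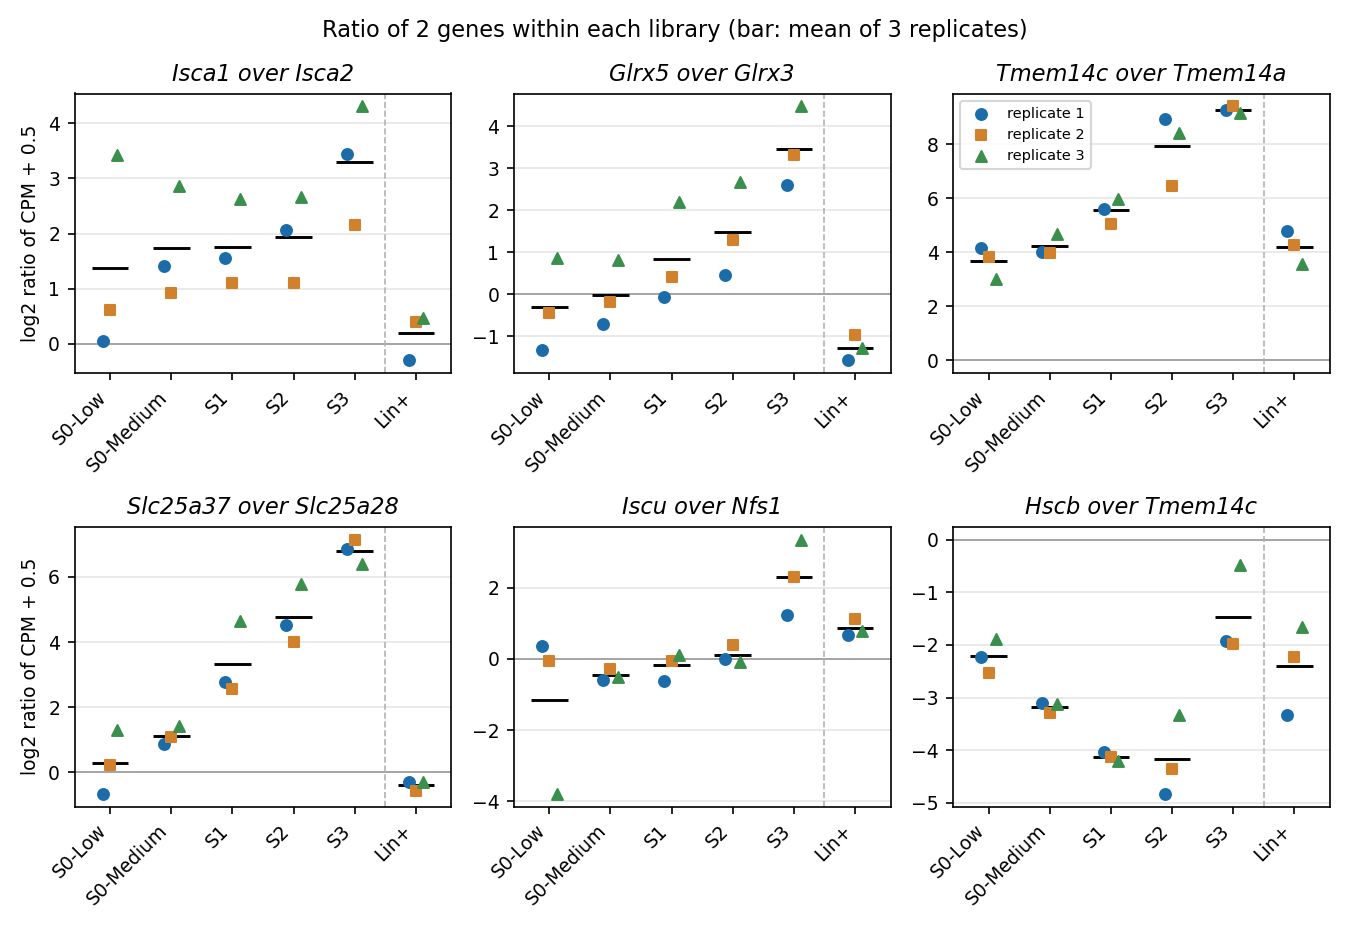
Log2 ratio of 2 genes in each library (vertical axis) for 6 pairs across the 5 erythroid populations and Lin+, with a bar at the mean of 3 replicates. Glrx5 over Glrx3 goes from -1.34 to 0.86 in S0-Low up to 2.60 to 4.48 in S3, while Hscb over Tmem14c lies lowest in S1 and S2 and returns to -1.98 to -0.49 in S3.

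Other genes of the same pathways were counted in 5 lists, from S0-Low to S3. Of the other mitochondrial assembly genes, 2 of 13 tested rose and 2 fell, with a median log2 fold change of -0.26, against -0.54 for all genes, of which 13.4% rose and 22.4% fell. Iba57, which works with Isca1 and Isca2, rose (3.33 ± 0.45, adjusted p = 6.92e-05), from 19.4 ± 5.54 to 196 ± 10.3 CPM. Bola3, a late-acting assembly factor, rose as well (2.22 ± 0.43, adjusted p = 0.00126). Nubpl, an assembly factor of respiratory complex I, fell by 1.91 on the log2 scale (adjusted p = 0.0308), and Fdx1, a ferredoxin, fell to at most 7 counts in any S3 library (adjusted p = 0.00131). Of the cytosolic assembly genes 1 of 12 rose, Ciapin1 (1.70 ± 0.45, adjusted p = 0.00964), 0 fell, and the median was -0.03, beside the same 13.4% and 22.4% of all genes. Fdx2 and Abcb6, members of these lists, are listed at 0 in all 18 libraries and were not tested.

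Of the other mitochondrial iron and heme transport genes, 6 of 12 rose and 1 fell, with a median of 1.27, beside 13.4% and 22.4% of all genes. Slc25a37 (mitoferrin-1) rose from 43.6 ± 11.7 to 5190 ± 889 CPM (log2 fold change 6.89 ± 0.66, adjusted p = 5.31e-06), and Fam210b, a mitochondrial protein of erythroid iron handling, from 6.56 ± 4.89 to 543 ± 136 CPM (6.35 ± 0.82, adjusted p = 4.9e-05). The gene that fell was Tmem14a (adjusted p = 0.00303).

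Of the proteins that carry iron-sulfur clusters, 6 of 29 rose and 6 fell, with a median of -0.06, beside the 13.4% and 22.4% of all genes. Mocs1, of molybdenum cofactor synthesis, rose (2.04 ± 0.55, adjusted p = 0.00992), as did Prim2, a primase subunit (1.54 ± 0.40, adjusted p = 0.00834). Aco1, the cytosolic aconitase that doubles as an iron-regulatory protein, fell from 44.6 ± 12.0 to 3.86 ± 6.3 CPM (adjusted p = 0.0241). Dph1, of diphthamide synthesis, fell from 20.8 ± 3.81 to 2.07 ± 3.06 CPM (adjusted p = 0.046).

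All 9 heme synthesis genes were called, 8 of them higher and 1 lower, with a median of 4.28, where 13.4% and 22.4% of all genes were. Alas2, the erythroid form of the first enzyme, rose from 4.77 ± 0.739 to 3410 ± 744 CPM (log2 fold change 9.49 ± 0.64, adjusted p = 4.81e-07). Ppox, the enzyme before the last, rose from 22.9 ± 10.1 to 984 ± 327 CPM (5.42 ± 0.59, adjusted p = 1.35e-05). Alas1, the form of the first enzyme that most tissues use, fell from 49.5 ± 5.83 to 6.91 ± 9.72 CPM (adjusted p = 0.0394).

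**Figure D4:**
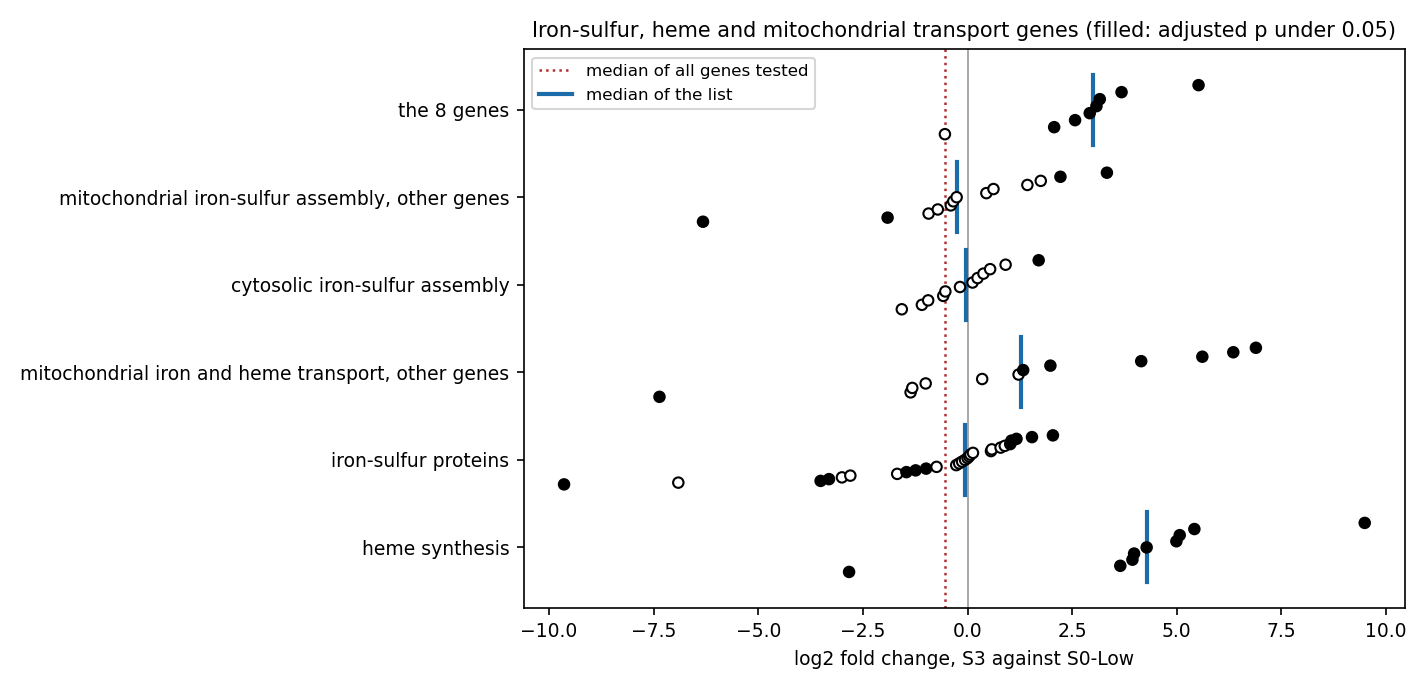
Log2 fold change of S3 against S0-Low (horizontal axis) for the 8 genes and for each tested gene of the 5 lists, filled where the edgeR adjusted p is under 0.05, with the median of each list (bar) and of all genes tested (dotted line, -0.54). The medians are 3.0 for the 8 genes, 4.28 for heme synthesis and 1.27 for other transport genes, and -0.26, -0.03 and -0.06 for the remaining lists. Fitted values of genes near 0 counts in S3, at the far left, depend on the prior count.

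The Lin+ fraction carried other lineages' RNA. Its labels name erythroblasts as the source, but the neutrophil and monocyte markers summed to 3000 to 5520 CPM in Lin+, with Itgam listed at 0, and the stem and progenitor markers to 1030 to 1530. Megakaryocyte markers summed to 258 to 709 CPM, lymphoid markers to 35.0 to 81.3, with Rag1 listed at 0, and hepatocyte and endothelium markers to 127 to 222, with Ttr listed at 0. Against S3, all 7 stem and progenitor and all 6 tested neutrophil and monocyte markers were called higher, as were 4 of 5, 3 of 4 and 4 of 5 tested of these other lists in that order. The part of these other cells in the values below was not tested.

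Against S3, 7 of the 8 genes were lower in Lin+ (all but Nfs1), where 14.1% of the 17755 genes tested were called lower in a fit of all 18 libraries. The 7 calls stood without replicate 3 in every population. Over all genes 5005 were higher and 2496 lower, or 7126 and 1338 with library totals. On the TMM scale all 8 lay below their S3 range in every Lin+ library, as did 17.3% of all genes. When counts were divided by library totals, Iscu overlapped its S3 range and Nfs1 lay above its own. The share of all genes on that scale was not computed. The log2 fold changes were -6.25 ± 0.65 for Abcb10 (adjusted p = 1.68e-06), -4.04 ± 0.43 for Glrx5 (2.01e-06), -3.91 ± 0.67 for Slc25a38 (0.000214), -3.73 ± 0.57 for Isca1 (6.93e-05), -3.33 ± 0.65 for Hscb (0.000639), -2.21 ± 0.46 for Tmem14c (0.00111) and -2.07 ± 0.63 for Iscu (0.0144). The call of Iscu was lost with library totals (adjusted p = 0.106), without S3 replicate 3 (0.0835) and without Lin+ replicate 3 (0.0544). Nfs1 had 20.4, 16.3 and 14.6 CPM in Lin+, and its log2 fold change of -0.42 ± 0.33 (adjusted p = 0.318) turned to 0.35 with library totals.

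Against S0-Low, 0 of the 8 were called in Lin+ by edgeR, where 0.715% of all genes were. At an unadjusted p under 0.05 there were 2, Nfs1 (-0.95 ± 0.33, adjusted p = 0.253) and Glrx5 (-0.96 ± 0.38, adjusted p = 0.365). DESeq2 called 1, where it called 664 of 18630 genes tested. Without replicate 3 in every population, 0 of the 8 were called. Glrx5, with 31.3, 36.9 and 19.6 CPM in Lin+, Nfs1 and Abcb10, with 33.6, 35.4 and 31.3 CPM, lay below their S0-Low range in every Lin+ library, as did 6.96% of all genes. The other 5 overlapped S0-Low. Iscu had 32.6, 36.5 and 25.4 CPM in Lin+, and Tmem14c had 108, 55.0 and 53.0 CPM.

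For each gene the 3 most similar profiles over the 15 erythroid libraries were found among 10651 genes, by the root mean square difference of log2 levels centred on their own mean. They describe likeness only, and the libraries share depth and replicate order. Among the nearest to Abcb10 were Smox and Tspan33 (differences 0.27 and 0.28, where the profile of Abcb10 itself had an SD of 1.99). Nearest to Hscb were Nfe2, Mettl7a1 and Ncoa4 (0.26 to 0.31, SD 1.37), and nearest to Isca1 were Klf1, Car2 and Tprgl (0.29 to 0.31, SD 1.26). Among the nearest to Tmem14c were Gfi1b and 8430419L09Rik (0.32 and 0.33, SD 0.95). Glrx5 was nearest to Apeh, 1700037H04Rik and Nek8 (0.22 to 0.27, SD 1.1), and Slc25a38 to Stx2, Hdac11 and Arrdc2 (0.31 to 0.34, SD 1.4). Iscu had the largest differences of the 8, not set against the SD, with A430005L14Rik, Asf1b and Dhrs13 at 0.34 to 0.45 (SD 1.28). Nfs1, whose own SD was 0.39, was nearest to Cul5, 1200011I18Rik and Zfp60 (0.22 to 0.23).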

How the data were processed

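Nascent RNA of 18 libraries (6 groups of 3) was analysed from 1 deposited table of counts per gene. The authors prepared stranded libraries from 4sU-labelled RNA, quantified the reads with kallisto 0.43.0 and deposited estimated counts as whole numbers, not normalised and not pooled. The submitters' processing notes name GRCm38. The transcript set and strand setting are not given in the sources used here. Kallisto divides reads that fit several transcripts, so genes with shared stretches are uncertain. Groups and replicate numbers came from the sample titles.

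The 15 erythroid libraries entered 1 edgeR 4.0.16 model (R 4.3.3; TMM scaling, filterByExpr, quasi-likelihood test, two-sided, Benjamini-Hochberg adjusted p under 0.05), and all 18 libraries another for Lin+. SE was taken as the absolute log2 fold change over the root of F. CPM used TMM factors of all 18 libraries, and values under 3 counts were kept as they were. No 2 replicates agreed within counting noise (chi-square over degrees of freedom 55.2 to 368). Log2 ratios were compared by exact permutation tests in Python 3.11.15 (scipy 1.17.1). Transcript lengths, 31-base stretches and overlaps came from GENCODE vM1 (NCBIM37), and coordinates and promoters from RefSeq GRCm38.p6.

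The genes, lists and tests were chosen with earlier results of these data known. The text names the 8 genes, the 2 largest called rises and falls of each list from S0-Low to S3 with a mean of at least 100 normalised counts in the higher population, the partners of the ratios, and the 3 nearest profiles of each gene. Results of a few genes that this rule selects are not reported here. Replicate numbers pair the libraries at the first 3 steps, where correlations of same-numbered deviations were 0.233 to 0.271, 0.316 to 0.373 and 0.200 to 0.318. Alternatives were DESeq2 1.42.0, RLE factors, library totals, globin genes left out, no filter, at least 10 counts in every compared library, the replicate block, the 6 compared libraries, all 18 libraries, other pseudocounts and each replicate left out. Leaving out replicate 3 in every population and the last 2 ratios were added after seeing the data.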

Additional observations from a re-analysis of the deposited data

How the results depend on the processing

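Over 7 comparisons, 880 alternative fold changes of the 8 genes were computed, of which 825 kept their direction and their side of the threshold, 25 reversed, 21 passed the threshold only under the alternative and 9 lost it. None of the 25 reversed values was a called change. The biological coefficient of variation of the 8 genes was 0.33 to 0.554, and the effect of depth was not tested. For the counts, the causes of the differences below were not tested.

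Genes called between S0-Medium and S0-Low numbered 0, and 55 with DESeq2, 53 without a filter and 23 with the replicate block. Between S1 and S0-Medium they numbered 0, and 410, 327 and 57 in that order, and 125 with all 18 libraries, and 1 of the 8 genes was called without a filter. Between S2 and S1 they numbered 0, and 159 with DESeq2, 77 without a filter, 2 with all 18 libraries and 0 to 2 with 1 replicate left out. Between S3 and S2 they numbered 1548, and 3410 with DESeq2, 2552 with library totals, 2546 without a filter and 3074 with the replicate block. At least 10 counts gave 1181 of 8152 genes tested, and all 18 libraries gave 2022 of 17755. They numbered 98 with the 6 compared libraries, 3259 without replicate 3 in every population and 692 to 2375 with 1 replicate left out. Of the 8 genes, 4 were called there with DESeq2, 1 with library totals (Nfs1, lower, in place of Hscb), 2 without a filter, 2 with at least 10 counts, 2 with all 18 libraries, 5 with the replicate block, 0 with the 6 compared libraries, 4 without replicate 3 in every population and 0 to 3 with 1 replicate left out. Between S3 and S0-Low 5932 of 16555 genes tested were called, and 3034 of 7873 with at least 10 counts and 3834 of 13423 with the 6 compared libraries. Between Lin+ and S0-Low 127 genes were called, and 664 with DESeq2 (1 of the 8 genes), 393 without a filter, 57 with at least 10 counts, 342 with the replicate block, 573 with the 6 compared libraries, 198 without replicate 3 in every population and 42 to 69 with 1 replicate left out. Between Lin+ and S3 7501 of 17755 genes tested were called, and 3429 of 8173 with at least 10 counts.

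Reversed log2 fold changes were Tmem14c between S3 and S2 (0.08 with DESeq2 and RLE factors, 0.05 with the block, -0.20 to 0.17 with 1 replicate left out, 0.28 without replicate 3 in every population) and Nfs1 between Lin+ and S3 (0.35 with library totals). With 1 replicate left out, values crossed 0 for Hscb at the first 3 steps (-0.91 to 0.09, -0.71 to 0.51 and -0.19 to 1.29), for Isca1, Iscu and Nfs1 between S0-Medium and S0-Low (-0.05 to 1.25, -0.33 to 0.62 and -0.09 to 0.28; Iscu was at -0.42 without replicate 3 in every population), for Slc25a38 between S2 and S1 (-0.25 to 1.39), and between Lin+ and S0-Low for Isca1 (-0.89 to 0.11, and 0.11 without replicate 3 in every population), Iscu (-0.02 to 0.93) and Tmem14c (-0.55 to 0.04, and 0.09).

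Same-numbered libraries did not pair in every case between S3 and S2 (correlations 0.091 to 0.204), S3 and S0-Low (0.012 to 0.095), Lin+ and S0-Low (0.040 to 0.106) or Lin+ and S3 (0.063 to 0.079). There the block called 5 of the 8 genes between S3 and S2, beside 3074 of 16555 genes. Hscb, Abcb10, Isca1 and Glrx5 were higher (edgeR adjusted p of 0.000169, 0.00275, 0.00364 and 0.00624), and Nfs1 was lower (0.0394). The block called 7 between S3 and S0-Low, beside 7014 of 16555 genes. Between Lin+ and S0-Low it called 0, beside 342 of 17755, and between Lin+ and S3 it called 7, beside 8538 of 17755.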
